A study of Danio rerio with 4 samples.

Results

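Apart from miR-9-5p, the miRNAs described here had a higher level in zebrafish (Danio rerio) ovarian follicles at the primary growth stage than at the pre-vitellogenic stage. For miR-194b this difference was not detectable beyond counting error. Of all the described miRNAs, 6 were taken by name (miR-430a-3p, miR-375, miR-725-3p, miR-194b, miR-7a and miR-9-5p). Another 9 were taken because they stood at 1 RPM (reads per 1000000 library reads) or more in primary growth follicles but were listed at 0 in pre-vitellogenic follicles. Together they are 15 of the 118 rows of the miRNA table. They hold 14 distinct sequences, since miR-126a-5p and miR-126b-5p are identical and carry the same value. These miRNAs were chosen by their RPM at the 2 stages, so their stage differences are a description and were not tested. The study compared follicles of 2 stages, sorted by size and look from ovaries of AB strain fish that were 3 months old, and the labels name no treatment or genetic change. For each stage there was 1 library of small RNA and 1 of mRNA, so no value has a replicate. All sample titles read PG, the short form for primary growth, and the cell type label was followed to tell the stages apart. The sources used here do not give how many fish went into a library.

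A miRNA is a short RNA cut from a hairpin precursor, and either arm of the hairpin (5p or 3p) can give the mature strand. The mature strand guides Argonaute proteins to mRNAs that pair with its seed, the bases 2 to 8 from the 5′ end, and lowers their stability or translation. In the zebrafish embryo miR-430 is known for clearing maternal mRNA once zygotic transcription starts. In vertebrates miR-7 and miR-375 are known from endocrine and neural cells, miR-9 from neural progenitors, and miR-194 from gut and liver.

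The sequences below are those of the table, 5′ to 3′, with T for U and the seed in capitals. The first 6 are the named miRNAs, shown because each has a seed that no other listed miRNA shares.
miR-7a: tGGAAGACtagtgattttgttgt
miR-430a-3p: tAAGTGCTatttgttggggtag
miR-9-5p: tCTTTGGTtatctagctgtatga
miR-375: tTTGTTCGttcggctcgcgtta
miR-725-3p: tTCAGTCAttgtttctagtagt
miR-194b: tGTAACAGccgctccatgtgga
The next lines set miRNAs that stood at 0 in pre-vitellogenic follicles beside the listed relative closest to them. The first of each pair was chosen for that 0, so the contrast within pairs is a description.
miR-199-3p: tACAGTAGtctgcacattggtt
miR-199-3-3p: aCAGTAGTccgcacattggtt
miR-19a-3p: tGTGCAAAtctatgcaaaactga
miR-19b-3p: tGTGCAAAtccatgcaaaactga
miR-203b-3p: gTGAAATGttcaggaccacttg
miR-203a-3p: gTGAAATGtttaggaccacttg
miR-15b-5p: tAGCAGCAcatcatggtttgta
miR-15a-5p: tAGCAGCAcagaatggtttgtg
miR-30e-5p: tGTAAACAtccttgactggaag
miR-30b: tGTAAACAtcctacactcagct
The last lines hold the 2 arms of the miR-1388 hairpin, both of them among the described miRNAs, and the sequence shared by miR-126a-5p and miR-126b-5p.
miR-1388-5p: aGGACTGTccaacctgagaatg
miR-1388-3p: aTCTCAGGttcgtcagcccatg
miR-126a-5p: cATTATTActtttggtacgcg

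The described miRNAs were 21 to 23 bases long and the other rows 21 to 24. The first base was T in 10 of 15 described rows and in 66 of 103 others, and the median GC content was 40.9% and 45.5%.

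The table values behave as RPM of library totals of 13147324 reads in primary growth against 19043107 reads in pre-vitellogenic follicles, so 1 read was worth 0.0761 and 0.0525 RPM. Only 0.46% and 3.18% of these totals fell on listed miRNAs, 60483 and 606372 reads. The smallest number listed above 0 was 6 reads in each library. A value of 0 may thus stand for fewer than 6 reads. Nearly all listed miRNAs were higher in pre-vitellogenic follicles. Of the 103 rows that are not described here, 102 were higher there. Over the 53 miRNAs at 1 RPM or more in both libraries the median difference was 2.41, in log2(RPM + 1) of pre-vitellogenic over primary growth follicles, and every difference given below is to be read against that shift.

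Of the 15 described miRNAs, 14 had a higher RPM in primary growth follicles and 1, miR-9-5p, a lower one. The mRNA libraries, whose depth is unknown from FPKM, held most oocyte markers at both stages, while granulosa and theca markers were low. The oocyte marker figla (0.441 and 0.190 FPKM) stayed under 1 FPKM at both stages. So did foxl2 (0.0337 and 0.273 FPKM) and cyp19a1a (0.315 and 0.370 FPKM) of the granulosa and theca list. The highest marker of that list in primary growth follicles was inha, at 1.25 FPKM. Oocyte markers summed to 9463 FPKM in primary growth against 3523 FPKM in pre-vitellogenic follicles over 11 genes, and markers of granulosa and theca cells to 3.901 and 29.2 FPKM over 11 genes. The oocyte markers bmp15 (117 and 114 FPKM) and gdf9 (56.4 and 62.2 FPKM) were abundant at both stages. Past 2-fold on the log2(FPKM + 1) scale, 6.53% of all 14480 genes tested lay toward primary growth and 29.1% toward pre-vitellogenic follicles. Of 10 oocyte markers tested, 5 lay toward primary growth, namely the egg coat genes zp3.2 (3478 and 993 FPKM) and zp2.1 (182 and 51.2 FPKM) with zar1, h1m and btg4. The germ cell gene vasa (79.4 and 174 FPKM) lay past 2-fold the other way. Of 9 granulosa and theca markers tested, 8 lay toward pre-vitellogenic follicles, among them lamb1a (0.442 and 4.82 FPKM), inha (1.25 and 7.31 FPKM), wt1a, gsdf and amh. The granulosa markers fshr and nr5a1a were listed at 0 in primary growth follicles. Differences were also centred on their median of 0.42 over genes that reached 1 FPKM at each stage. Centring moves the difference of every gene toward primary growth. The share of all genes past 2-fold was not computed after it, so counts of genes after centring have no background here. Then 6 of the 9 granulosa and theca markers lay toward pre-vitellogenic follicles, without fshr. The same 5 oocyte markers lay toward primary growth, and vasa was no longer past 2-fold. These marker sums moved with the stages, and their part in the miRNA differences was not tested. In whole follicles, fewer cells of a type and less RNA per cell cannot be told apart.

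**Figure D1:**
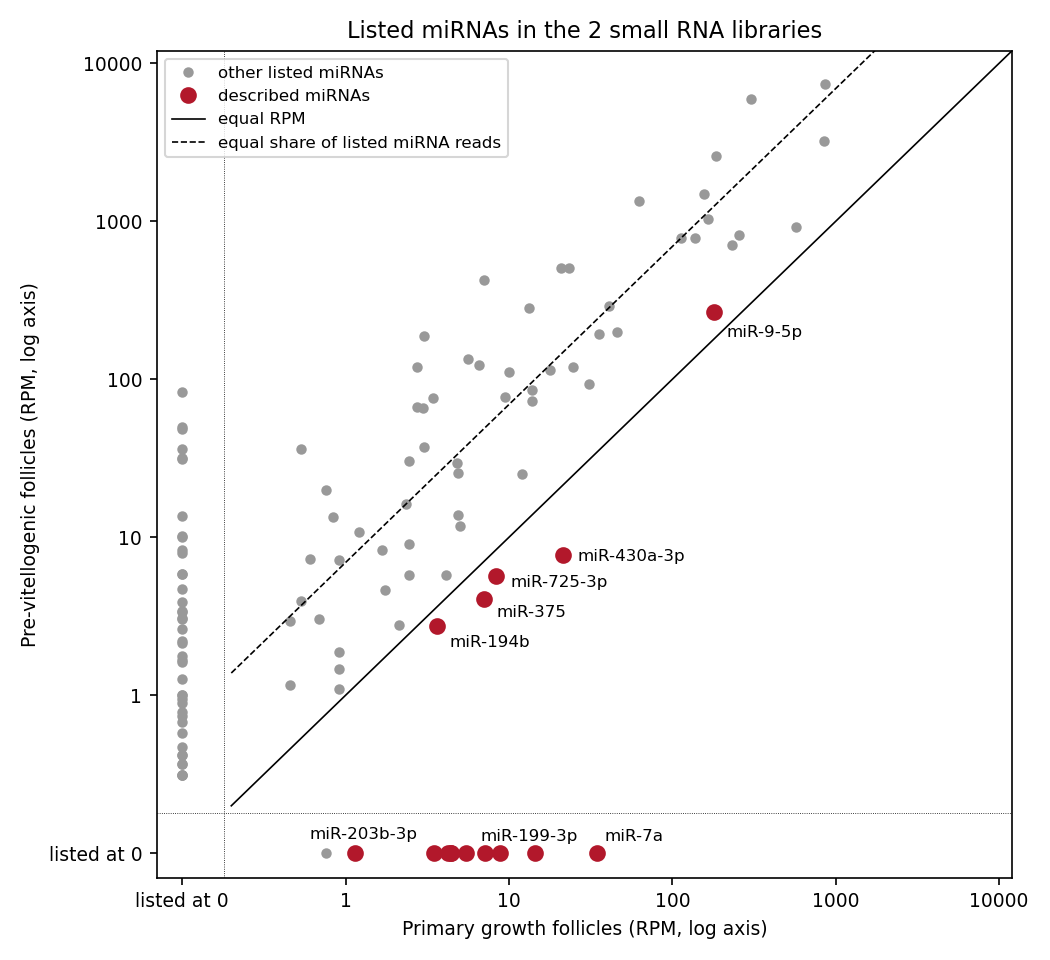
RPM of all 118 listed miRNAs in pre-vitellogenic against primary growth follicles, 1 library each, on log axes with values listed at 0 set apart. The described miRNAs lie under the line of equal RPM except miR-9-5p, and all of them lie under the dashed line of equal share of listed miRNA reads, 6.92 times higher.

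Among the described miRNAs listed at both stages, miR-430a-3p had the largest difference toward primary growth follicles. It was at 21.4 RPM (281 reads) in primary growth follicles against 7.77 RPM (148 reads) in pre-vitellogenic follicles. The primary growth library was thus 2.75-fold higher, with an exact conditional 95% interval of 2.25 to 3.38 that covers counting error only. No other miRNA of the miR-430 family is analysed here.

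The endocrine miRNA miR-375 was at 6.998 RPM (92 reads) in primary growth against 4.096 RPM (78 reads) in pre-vitellogenic follicles. It was 1.71-fold higher in primary growth follicles (interval 1.25 to 2.34). For miR-725-3p the values were 8.37 RPM (110 reads) and 5.67 RPM (108 reads), a 1.48-fold difference (interval 1.12 to 1.94). The read numbers of miR-725-3p were close to level, but the primary growth library had fewer reads in all, so its level per library read was higher there.

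For miR-194b the levels were 3.65 RPM (48 reads) and 2.73 RPM (52 reads). The ratio of 1.34 in favour of primary growth follicles had an interval of 0.884 to 2.02, so at this depth a difference was not detectable beyond counting error. None of miR-375, miR-725-3p and miR-194b reached the 2-fold mark used here.

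The most abundant of the described miRNAs, miR-9-5p, went the other way. It was at 178.9 RPM (2352 reads) in primary growth against 266.1 RPM (5068 reads) in pre-vitellogenic follicles. Its level was thus 1.49-fold higher in pre-vitellogenic follicles (interval 1.42 to 1.56). Among listed miRNAs it held rank 8 in the first library and rank 18 in the second. As deposited, the data go against calling miR-9-5p a miRNA of primary growth follicles.

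**Figure D2:**
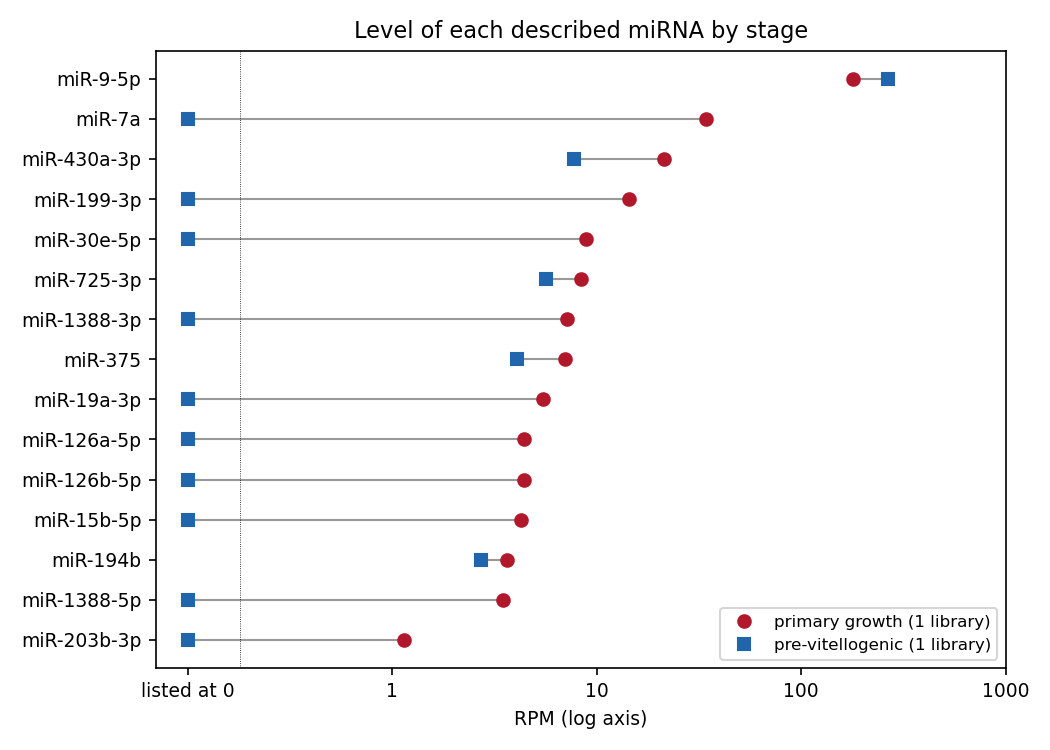
RPM of each described miRNA on a log axis, with circles for primary growth and squares for pre-vitellogenic follicles, 1 library each. For 10 miRNAs the pre-vitellogenic value is listed at 0, and only miR-9-5p has its square to the right of its circle.

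The other 10 rows were listed in primary growth follicles but at 0 in pre-vitellogenic follicles, although the pre-vitellogenic library had more reads. Leading them was miR-7a, at 34.4 RPM (452 reads) and rank 17 in primary growth follicles. This was the highest value in that library of any miRNA at 0 in the other. If a 0 stands for fewer than 6 reads, which is 0.315 RPM in the pre-vitellogenic library, miR-7a was at least 109-fold higher in primary growth follicles.

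Next came miR-199-3p, known from mesenchymal cells, at 14.4 RPM (189 reads) in primary growth follicles, which is at least 45.6-fold higher by the same reckoning. A member of the widely expressed miR-30 family, miR-30e-5p, stood at 8.82 RPM (116 reads). Both arms of miR-1388 belonged to this set, with 94 reads of the 3p arm (7.15 RPM) and 46 reads of the 5p arm (3.499 RPM). No other hairpin had both arms listed in primary growth follicles but at 0 in pre-vitellogenic follicles.

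Of the miR-17 to miR-92 cluster, miR-19a-3p was at 5.48 RPM (72 reads). The row of miR-126a-5p, whose hairpin is known from endothelial cells, was at 4.41 RPM (58 reads), as was that of miR-126b-5p. Reads of that sequence cannot be assigned to either hairpin and appear to be counted in both rows. At the lower end stood miR-15b-5p at 4.26 RPM (56 reads) and miR-203b-3p, of a family known from skin, at 1.14 RPM (15 reads). The 10 rows lay between 1.14 and 34.4 RPM, and their bounds ran from at least 3.62-fold to at least 109-fold.

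At the edge of the rule, miR-203b-3p, miR-1388-5p and miR-15b-5p (15, 46 and 56 reads) were the lowest inside it. Just outside stood miR-222a-3p, at 0.761 RPM (10 reads) and 0. It was the 1 miRNA besides the 10 that was listed in primary growth follicles only. On the side of the pre-vitellogenic value the nearest rows outside were miR-216b (2.13 and 2.78 RPM), miR-429a (1.75 and 4.62 RPM) and miR-16a (2.43 and 5.78 RPM). By the ratio of the stages, the miRNAs most like the described ones among those listed at both stages were miR-203a-3p, miR-216b, miR-1, miR-34c-5p and miR-20a-5p. Their pre-vitellogenic values were 1.21, 1.31, 1.41, 1.61 and 1.61 times those of primary growth follicles. The opposite pattern was more frequent, with 42 miRNAs at 0 in primary growth but listed in pre-vitellogenic follicles, up to miR-27c-3p at 82.9 RPM (1578 reads).

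Counted at a 2-fold difference on the log2(RPM + 1) scale, 11 of the 15 described miRNAs were higher in primary growth follicles, the 10 at 0 in the other library and miR-430a-3p. Over all 101 miRNAs that reached 1 RPM in at least 1 library, 10.9% were called higher in primary growth follicles against 77.2% in pre-vitellogenic follicles. Those 11 are all the calls toward primary growth, and since the same values chose the miRNAs, nothing is read from this count. With differences centred on the median shift of 2.41, all 15 described miRNAs were past 2-fold toward primary growth, and so were 15 others (29.7% of 101, against 24.8% the other way). On that scale miR-9-5p differed by -1.84, miR-430a-3p by -3.77 and miR-7a by -7.56. Since miR-7a was at 0 in pre-vitellogenic follicles, its value depends on the 1 RPM added before the logarithm. With the libraries rescaled to the same sum of listed miRNAs it was -6.51. Of all calls, 12.4% were toward primary growth as deposited and 54.5% after centring.

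As shares of listed miRNA reads, every described miRNA was higher in primary growth follicles. This is not particular to them, since any miRNA whose RPM rose less than 6.92-fold has a higher share there. The shares of miR-203a-3p, miR-216b and miR-1 were 5.73-fold, 5.30-fold and 4.92-fold higher there, against 4.65-fold for miR-9-5p. Others went the other way, such as let-7a (6.55% and 18.7%). Together the described miRNAs took 6.68% of listed reads in primary growth follicles (4039 reads, Wilson 95% interval 6.48 to 6.88). In pre-vitellogenic follicles they took 0.899% (5454 reads, 0.876 to 0.924). Against the whole library the same sums were close to level, 0.0307% and 0.0286%. Without miR-9-5p, which had a higher RPM in pre-vitellogenic follicles, they were 0.0128% and 0.00203%. The level sums thus rest on miR-9-5p. The sum of listed miRNAs was larger in the pre-vitellogenic library, 31842 against 4600 RPM.

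Most of these reads were miR-9-5p. Its share of listed reads was 3.89% (3.74 to 4.05) in primary growth against 0.836% (0.813 to 0.859) in pre-vitellogenic follicles, 4.65-fold lower, although its RPM was higher. Without it the described miRNAs took 2.79% and 0.0637%. The share of miR-430a-3p was 0.465% and 0.0244%, 19.0-fold lower in pre-vitellogenic follicles. The shares of miR-375 (0.152% and 0.0129%), miR-725-3p (0.182% and 0.0178%) and miR-194b (0.0794% and 0.00858%) differed 11.8-fold, 10.2-fold and 9.25-fold. The 10 rows at 0 took 1.91% of listed reads in primary growth follicles (1156 reads), of which miR-7a was 0.747%. For miR-194b the intervals of the share did not overlap (0.0599 to 0.105 and 0.00654 to 0.0112), while those of its RPM ratio held 1.

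**Figure D3:**
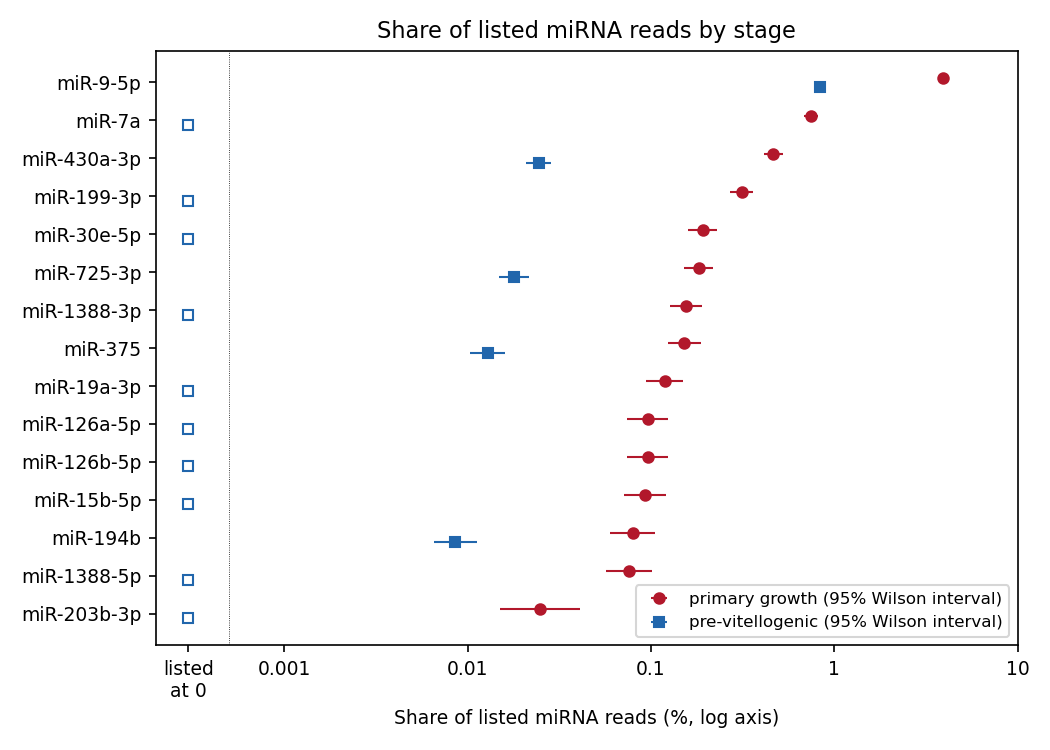
Share of listed miRNA reads, in percent on a log axis, for each described miRNA, with 95% Wilson intervals for counting error and open squares for values listed at 0. All shares are lower in pre-vitellogenic follicles, from 3.89% to 0.836% for miR-9-5p.

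For 9 of the 15 described rows the table held a relative, either the other arm, the same seed or the same miR number. Some of these relatives are themselves described miRNAs and share the pattern, namely the arms of miR-1388 and the rows of miR-126a-5p and miR-126b-5p. The other 14 relatives were all higher in pre-vitellogenic follicles, which the rule and the 102 of 103 other rows fix nearly in advance, so nothing is read from that count. For 7 of the 10 miRNAs at 0, at least 1 relative was listed above 0 in the pre-vitellogenic library. Of all 118 rows 107 were above 0 there, so nothing is read from this count either.

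Several of these pairs differ at a single base, counted here from the 5′ end of the first miRNA named. Between miR-19a-3p and miR-19b-3p the difference was T11C, and miR-19b-3p was at 11.9 RPM (157 reads) and 25.0 RPM (476 reads) while miR-19a-3p was at 5.48 RPM and 0. A further miRNA with this seed, miR-19d-3p, was listed with 0 and 19 reads. Between miR-203b-3p and miR-203a-3p it was C11T, with 12 and 21 reads of miR-203a-3p. The RPM of miR-203a-3p was 1.21-fold higher in pre-vitellogenic follicles (interval 0.568 to 2.69), so a difference was not detectable beyond counting error. The sequence of miR-199-3-3p starts at base 2 of miR-199-3p and differs from it by T11C. These last miRNAs were listed in opposite libraries, miR-199-3p with 189 and 0 reads and miR-199-3-3p with 0 and 65 reads. How reads were shared out between sequences 1 base apart is not stated in what was at hand, so the split within these pairs is uncertain.

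The other arm of 2 hairpins was abundant at the stage where the described arm was at 0. The 3p arm of miR-126a was at 13.8 RPM (181 reads) in primary growth against 85.9 RPM (1635 reads) in pre-vitellogenic follicles. There were 0.320 reads of the 5p arm for each read of the 3p arm in primary growth follicles, and at most 0.00367 in pre-vitellogenic follicles if a 0 stands for fewer than 6 reads. These 5p reads may also come from the hairpin of miR-126b, whose 5p sequence is identical. The 5p arm of miR-199 was at 9.43 RPM (124 reads) and 77.0 RPM (1466 reads). The ratio of miR-199-3p to miR-199-5p reads was 1.52 in primary growth follicles and at most 0.00409 in pre-vitellogenic follicles. This leaves out miR-199-3-3p, with 0 and 65 reads, so it is not a bound for all 3p reads of miR-199. For miR-15b the 5p arm had 56 and 0 reads and the 3p arm 0 and 9 reads, while miR-15c, of the same number, had 7 and 75 reads.

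Of the 4 seeds shared with other listed miRNAs, 2 had a higher sum in each stage. The seed of miR-15b-5p is shared by miR-15a-5p, miR-16a, miR-16b, miR-16c-5p and miR-457b-5p, and its sum was 12.9 RPM in primary growth against 145 RPM in pre-vitellogenic follicles. The sum of the miR-19 seed was 17.4 and 26.0 RPM. By RPM, the sums of the miR-30 seed and the miR-203 seed were higher in primary growth follicles. The miR-30 seed had 13.8 and 11.7 RPM (182 and 223 reads), and the miR-203 seed 27 and 21 reads. No intervals were computed for these sums, so differences beyond counting error were not tested. Each includes a miRNA chosen for its 0 in pre-vitellogenic follicles, miR-30e-5p (116 reads) or miR-203b-3p (15 reads). Their direction thus rests in part on that choice. The miRNAs miR-30e-5p and miR-30b differ at 7 of 22 bases outside the seed, and miR-30b was at 5.02 and 11.7 RPM.

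**Figure D4:**
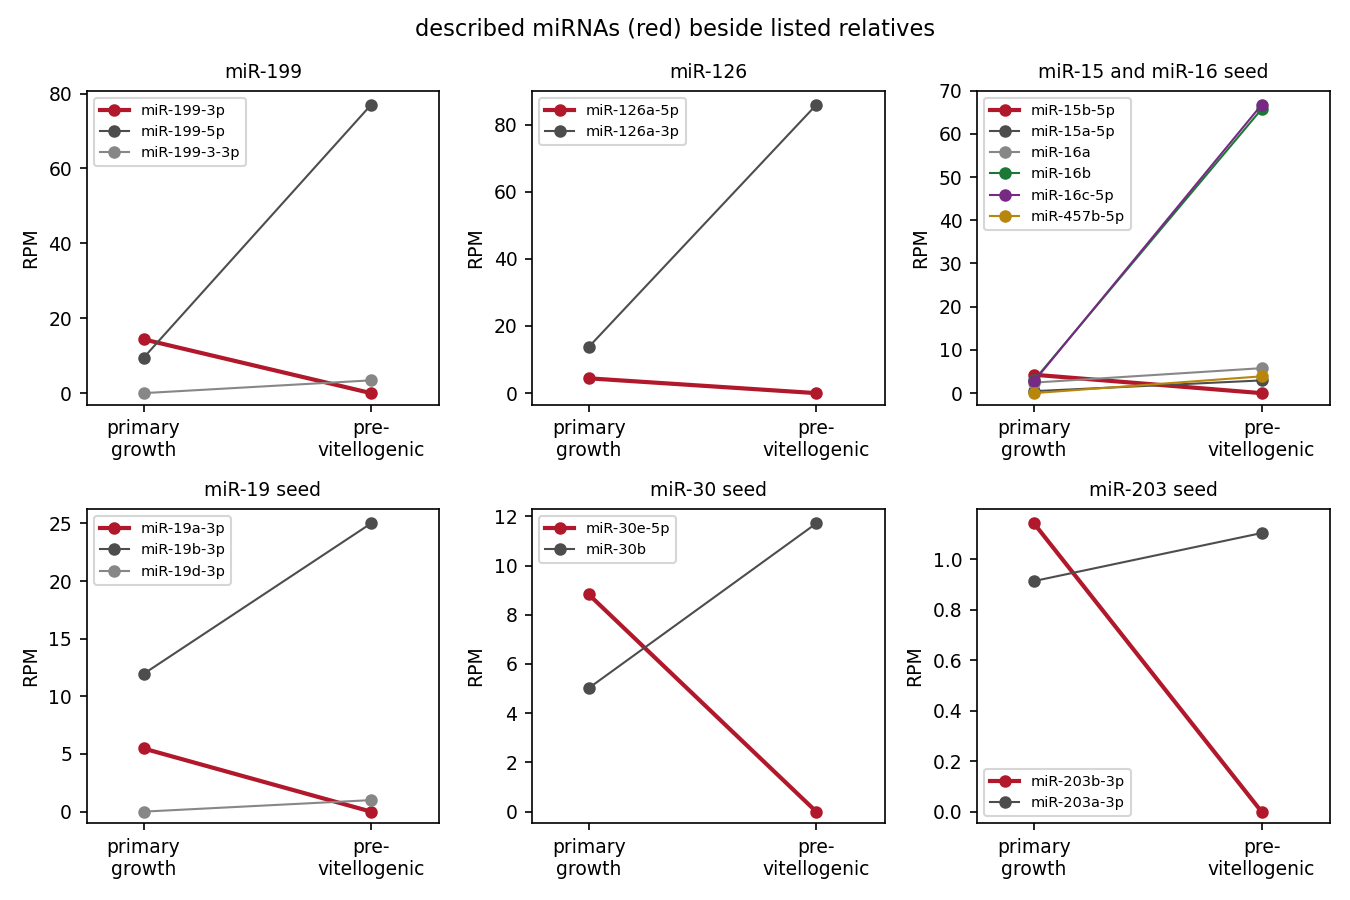
RPM at both stages for 6 described miRNAs (red) and listed relatives of the same hairpin, number or seed, 1 library per stage. Each red line ends at 0, as the rule required. The relatives plotted end higher than they began, for example miR-199-5p from 9.43 to 77.0 RPM, but for miR-203a-3p not beyond counting error.

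The mRNA table lists hairpin genes on the Zv9 genome build, which places the described miRNAs. Of its 332 rows for miRNA genes 38 were assigned to them. These include mir-199-3, whose name matches miR-199-3-3p, a relative that is not among the described miRNAs. The hairpin of miR-1388 lies on chromosome 23 (13716208 to 13716310), that of miR-194b on chromosome 14 (48410784 to 48410860), that of miR-203b on chromosome 20 (27435485 to 27435569) and that of miR-19a on chromosome 1 (2806384 to 2806472). The miR-19a hairpin starts within 485 bases of those of miR-17a-1, miR-18a, miR-19b, miR-20a and miR-92a-1. Rows for miR-430a number 13, of which 12 lie on chromosome 4. There are 7 rows for miR-9 and 3 for miR-7a, and miR-9-6 and miR-7a-2 lie 70980 bases apart on chromosome 7. Since several loci give the same mature sequence, the table cannot tell which of them the reads came from.

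Only 1 of these 38 rows was above 0 in the mRNA libraries. It was mir-7a-3, at 356 FPKM in primary growth against 100.2 FPKM in pre-vitellogenic follicles, with deposited intervals of 0 to 5351 and 0 to 2925 FPKM. The row is 120 bases long and shares its locus (chromosome 8, 448287 to 473513) with fem1c, pggt1b and si:ch1073-299b15.4, and such short rows have poor FPKM estimates. The genes fem1c (6.06 and 6.08 FPKM) and pggt1b (6.74 and 9.46 FPKM) were not past 2-fold.

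The loci of these hairpins hold 15 other genes, of which 8 reached 1 FPKM in at least 1 library. The strands of hairpins and genes are not given here. A shared locus is thus not read as a shared transcript. Past 2-fold were 2 of the 8 toward pre-vitellogenic follicles and 0 toward primary growth, beside 29.1% and 6.53% of all genes. After centring, 1 lay past 2-fold in each direction, with no share of all genes on that scale. The row of mir-126b lies in the locus of egfl7, which encodes a secreted endothelial protein and was listed at 0 and at 0.305 FPKM. The 3 hairpins of miR-199 lie in the loci of the dynamin genes dnm1a, dnm2a and dnm3. The one in the locus of dnm2a is mir-199-3, whose name matches miR-199-3-3p, which is not a described miRNA. Of these dnm2a was at 5.32 and 17.3 FPKM, past 2-fold toward pre-vitellogenic follicles, and dnm3 at 5.06 and 4.64 FPKM. The row of mir-375-1 shares its locus with tmem198b (9.57 and 20.8 FPKM, past 2-fold toward pre-vitellogenic follicles) and cryba2a (0.588 FPKM and 0).

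The study looked for targets whose mRNA moves opposite to the miRNA. Genes reported elsewhere as targets of the described miRNAs were therefore followed, in zebrafish for miR-430 and miR-9 and in mammals for miR-7, miR-375 and miR-194. Of 31 such genes found in the mRNA table, 21 reached 1 FPKM in at least 1 library. Of these 7 were past 2-fold toward pre-vitellogenic follicles on the log2(FPKM + 1) scale, 1 was lower and 13 were neither. The 7 include fgfr1a, listed for miR-9, although miR-9-5p itself had a higher RPM in pre-vitellogenic follicles (178.9 and 266.1 RPM). By RPM fgfr1a thus did not move opposite to its miRNA. Among all 14480 genes tested 29.1% were higher and 6.53% lower, so the 7 of 21 is near the background. The median difference was 0.85 for the 21 genes and 0.50 for all genes tested. Centred on the median of 0.42 over genes that reached 1 FPKM at each stage, 3 of the 21 were higher and 3 lower. The share of all genes on that scale was not computed.

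For miR-7, 6 genes were found and 4 reached 1 FPKM. Of these 3 were past 2-fold toward pre-vitellogenic follicles, beside 29.1% of all genes, and after centring 1 was, egfra. The EGF receptor gene egfra was at 0.617 and 3.55 FPKM, the insulin receptor substrate gene irs1 at 1.20 and 4.36 FPKM, and the kinase gene raf1b at 17.2 and 42.1 FPKM. The fourth gene, raf1a, was at 8.37 and 9.92 FPKM. For miR-375 the Hippo pathway coactivator gene yap1 was at 5.46 and 24.2 FPKM, 1 of 4 past 2-fold, while pdpk1b was at 13.2 and 24.7 FPKM and mtpn at 20.5 and 37.9 FPKM.

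For miR-430 the nodal ligand gene ndr1 was lower in pre-vitellogenic follicles (6.53 and 2.26 FPKM), in the same direction as miR-430a-3p. The germ-line gene nanos3 was at 122 and 70.5 FPKM and the germ granule gene tdrd7 at 42.4 and 54.0 FPKM, neither past 2-fold. The related gene nanos1 was at 0.343 and 1.91 FPKM and past 2-fold. After centring, nanos3 and ndr1 lay past 2-fold toward primary growth, as miR-430a-3p did, and nanos1 was no longer past it. For miR-9 the FGF receptor gene fgfr1a was at 2.46 and 9.81 FPKM, past 2-fold, and the transcriptional repressor gene her6 at 7.45 and 14.8 FPKM, short of it. The fgfr1a difference had the same direction as the RPM of miR-9-5p (178.9 and 266.1 RPM). It was opposite to the share of listed reads of miR-9-5p (3.89% and 0.836%). For miR-194 the protease gene bmp1a was at 2.25 and 5.61 FPKM, past 2-fold, and the ubiquitin ligase subunit gene rbx1 at 51.5 and 27.1 FPKM, short of it. After centring, rbx1 lay past 2-fold toward primary growth, bmp1a was short of it, and fgfr1a stayed past it toward pre-vitellogenic follicles.

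**Figure D5:**
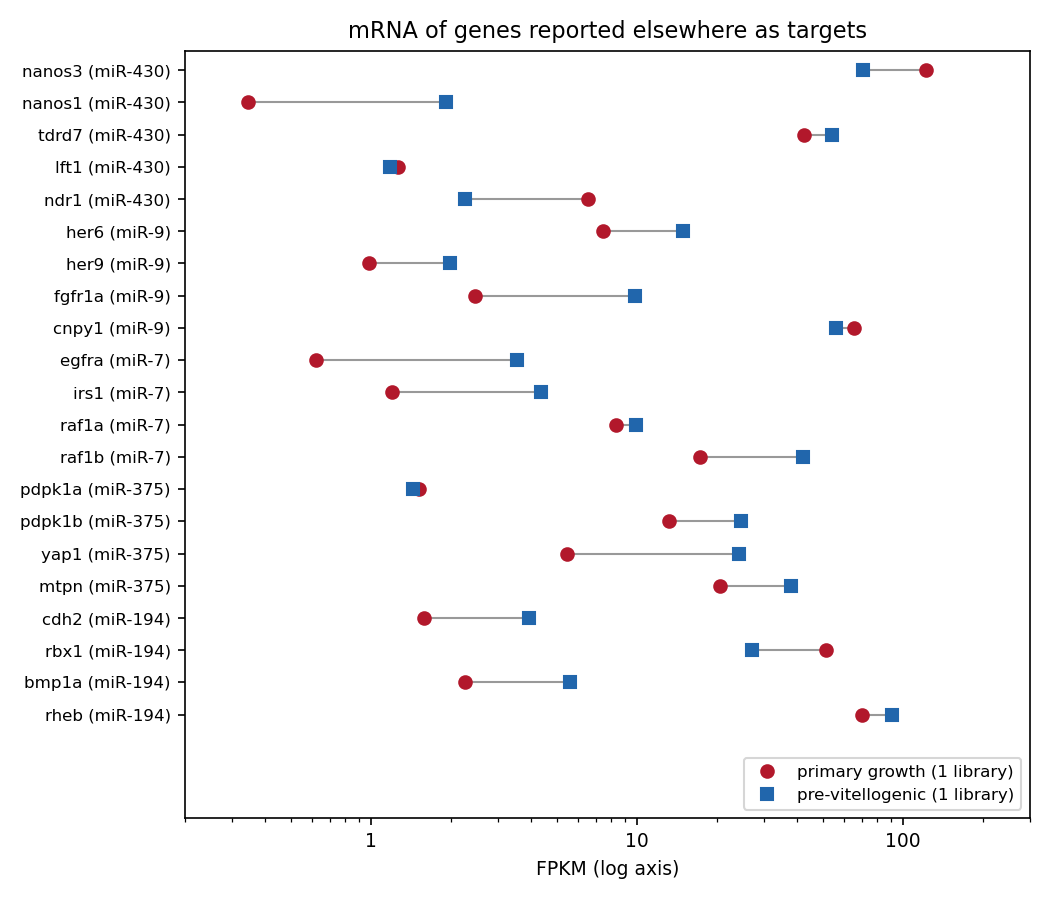
FPKM of 21 genes reported elsewhere as targets of miR-430, miR-9, miR-7, miR-375 or miR-194, on a log axis, with circles for primary growth and squares for pre-vitellogenic follicles, 1 library each. Past 2-fold lie 7 genes toward pre-vitellogenic follicles, among them yap1 (5.46 to 24.2 FPKM), and 1 gene, ndr1, the other way.

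Because several of these miRNAs are known from other tissues, markers of those tissues were read in the mRNA libraries. Of 14 pancreas and pituitary markers, 4 were listed at 0 in primary growth against 6 in pre-vitellogenic follicles, among them ins, lhb and cga at both stages. Their sum was 23.7 and 9.47 FPKM, and gcga, the glucagon gene, held most of it (15.5 and 4.03 FPKM). This sum was lower in pre-vitellogenic follicles, as were miR-7a and miR-375, and its part in them was not tested. Past 2-fold toward primary growth were 2 of 5 tested, gcga and the somatostatin gene sst2 (1.31 FPKM and 0), beside 6.53% of all genes. None of the 5 lay past 2-fold the other way. After centring 3 of the 5 lay toward primary growth, a count that cannot be set beside the 6.53%, which was taken before centring. Of 12 neural markers elavl3, sox2 and neurod were listed at 0 at both stages, and the sum was 20.2 and 19.4 FPKM, of which fabp7a held 14.8 and 8.71 FPKM. The synaptic vesicle gene syt1a (0.885 and 5.29 FPKM) was the 1 of 3 tested neural markers past 2-fold, toward pre-vitellogenic follicles, beside 29.1% of all genes. After centring, fabp7a also lay past 2-fold, toward primary growth. The 9 gut and liver markers summed to 6.54 and 8.75 FPKM, with fabp10a and cdx1b listed at 0 at both stages. None of the 2 tested lay past 2-fold, but after centring tfa (1.70 and 0.762 FPKM) did, toward primary growth. The 12 markers of zygotic embryos summed to 2.92 and 4.08 FPKM, with tbx16 and foxa2 listed at 0 at both stages. The 8 blood markers summed to 59.3 and 56.3 FPKM, of which hbaa1 held 55.1 and 51.6 FPKM. The sum thus says little of the others, such as alas2 (0.0347 and 0.744 FPKM) and slc4a1a (0.287 and 0.592 FPKM). Of 4 blood markers tested, 1 lay past 2-fold toward primary growth, the lysozyme gene lyz (2.08 and 0.377 FPKM), beside 6.53% of all genes. The 8 muscle markers summed to 3.07 and 4.76 FPKM, with none of 2 tested past 2-fold.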

How the data were processed

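Small RNA and mRNA libraries of both stages (1 each) were used as deposited by the authors. The small RNA header says RPKM, but 100% of the 183 deposited values above 0 were whole multiples of 1 step per library within 0.01 steps, whatever the miRNA length, so they were read as RPM and divided by the step to give read numbers. The mapping and counting of small RNA by the authors is not given in sources used here. The deposited mRNA values are FPKM per transcript. The Zv9 build, Cufflinks 2.2.1 and TopHat2 2.0.11 stand, without their roles, in the submitters' processing notes. Transcripts were summed per gene name (ID where no name was given).

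Differences are log2(value + 1) of pre-vitellogenic over primary growth follicles, which understates low items; items that reached 1 RPM or 1 FPKM in at least 1 library were called at 2-fold. Wilson and exact Clopper-Pearson intervals at 95% cover counting error only, since each stage has 1 library. Reads without molecular identifiers are not independent molecules, so the intervals may be too narrow even for that. A 0 was taken as 6 reads, the smallest number listed, and not as the 3 counts planned. With 1 library per stage no test was possible. Read recovery was tested on 50 simulated libraries. Alternatives were other pseudocounts, filters, denominators, memberships and scalings. The named miRNAs, marker lists and target lists were chosen with earlier results of these data known. All described miRNAs and their relatives were named, with at most 6 genes past 2-fold per list, by size of difference; fshr and genes not past 2-fold were named after their values were seen. Calculations used Python 3.11.15, pandas 2.3.3 and scipy 1.17.1.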

Additional observations from a re-analysis of the deposited data

How the results depend on the processing

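The share of listed reads taken by the described miRNAs, 6.68% in primary growth against 0.899% in pre-vitellogenic follicles, was 0.0307% and 0.0286% of the library totals, and 8.23% and 1.17% without miR-22a-3p, the most abundant other miRNA, in the denominator. It was 5.51% in primary growth follicles for the 6 named miRNAs alone, and 2.79% and 0.0637% without miR-9-5p, an alternative chosen after seeing the data. Memberships at 0.5 or 2 RPM, and identical sequences counted once, changed these shares by less than their intervals. The 11 described miRNAs past 2-fold toward primary growth became 2 with a pseudocount of 10, as did the count over all rows. Over all rows the counts toward primary growth (11) and pre-vitellogenic follicles (78) became 28 and 35 after rescaling to the same sum of listed miRNAs, 30 and 25 after centring, and 0 and 25 at 100 RPM or more; the pseudocount of 10 gave 49 toward pre-vitellogenic follicles. Thus the number of calls rests on scaling and on low values, and the cause was not tested. The difference of miR-9-5p, not called, went from 0.57 to -2.21 after rescaling. Reported targets higher in pre-vitellogenic follicles (7) became 11 with FPKM scaled to equal totals and 3 after centring, when 3 were lower. No paired analysis was possible because each stage has 1 library of each kind; for the same reason no library could be left out. Depth limits the rarer miRNAs, such as miR-194b with 48 and 52 reads and an interval of 0.884 to 2.02.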

Other observations

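Among listed miRNAs known from other tissues, those outside the described set were higher in pre-vitellogenic follicles, as were 102 of all 103 rows outside it, so this is no more than the background. The blood miRNAs miR-142a-3p, miR-144-5p and miR-150 summed to 0.608 RPM in primary growth against 11.7 RPM in pre-vitellogenic follicles. The muscle miRNAs miR-1 and miR-206-3p summed to 4.11 and 7.46 RPM, and the liver miRNA miR-122 was listed at 0 and at 2.63 RPM (50 reads). In the epithelial group miR-200a-5p was at 0 and 10.2 RPM and miR-141-3p at 1.67 and 8.297 RPM, whereas miR-203b-3p, described above, was at 1.14 RPM and 0. The neural miRNA miR-153b-3p was at 4.87 and 25.6 RPM beside miR-9-5p at 178.9 and 266.1 RPM.

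Hairpins with both arms in the table numbered 12. Both arms were above 0 for 4 of them in primary growth against for 7 in pre-vitellogenic follicles. The hairpin of miR-222a had 10 reads of its 3p arm and none of its 5p arm listed in primary growth follicles, and 192 reads of its 5p arm with the 3p arm at 0 in pre-vitellogenic follicles. The listed arm of miR-15b also differed between the libraries (5p with 56 reads in primary growth, 3p with 9 reads in pre-vitellogenic follicles).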
